A study of Rattus norvegicus with 20 samples.

Results

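The immediate early response genes described here are Fos, Fosb, Jun, Junb, Egr1, Ier2, Atf3, Nr4a1, Dusp1 and Maff, 10 of the 32495 named gene rows of the count table. They were chosen from a list of rapidly induced genes because Fos and Dusp1 are among the genes that differ most between conditions in these data. Their differences between conditions are therefore given as a description, without p values. Expression was measured by total RNA sequencing, after depletion of ribosomal RNA, in the gastrocnemius, a fast hind-limb muscle, of female Fischer 344 rats. Every rat carried a Ward colorectal carcinoma, and no tumour-free rats are in the series. TUMOUR STD rats (5 libraries) ate a standard diet and received no chemotherapy. CHEMO STD rats (7 libraries) ate the same diet and received repeated cycles of CPT-11 (irinotecan) with 5-FU (5-fluorouracil) on the following day. CHEMO FO rats (8 libraries) received the same chemotherapy and were moved to a fish oil diet, rich in the n-3 fatty acids EPA and DHA, when it began. Muscle was collected about a week after the last dose. The methods give an age without its unit, so no age is given here. CHEMO FO differs from TUMOUR STD in both drug and diet, and there was no fish oil group without chemotherapy.

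Immediate early genes are transcribed within minutes of a stimulus from factors already present in the cell, such as SRF with its ETS partners and CREB, which MAP kinases and calcium signals activate. Many encode transcription factors, and others encode proteins that end the signal. Their transcripts are short-lived. In skeletal muscle they are known for brief induction by contraction, stretch, injury and stress hormones. Fos, Fosb, Jun and Junb encode subunits of the dimeric factor AP-1. Atf3 and Maff encode bZIP factors that pair with related proteins, Egr1 a zinc-finger factor, Nr4a1 an orphan nuclear receptor and Ier2 a nuclear protein of the same response. Dusp1 encodes a phosphatase that switches off MAP kinases.

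The libraries of CHEMO STD replicates 1 and 2 have names with the same stem and were almost alike. A chi-square over well-counted genes (a minimum of 500 counts) came to 2.23 per gene for this pair, against 13.7 to 255 in the 58 other pairs within groups. Their counts were summed and taken as 1 sample, leaving 19 samples (CHEMO STD n = 6). A library held 5422118 to 10857477 counts on named genes in TUMOUR STD, 3020821 to 10516783 in CHEMO STD and 3035841 to 9119394 in CHEMO FO. Of 8 listed muscle fibre markers, the 6 found in the file were expressed in every group, at a summed 116912 to 230892 CPM (CPM being counts scaled to a common library size, adjusted by TMM). The low end of that range was CHEMO FO replicate 18, which stood apart. It was the deepest library of its group and had the lowest summed smooth muscle markers (77.3 CPM against a group median of 215) and the highest macrophage markers (640 CPM against 223), so results that rest on it are given with and without it. In bulk muscle, fewer cells of a type and less RNA per cell cannot be told apart.

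Of the 10 genes, 9 passed edgeR's filter on low counts, as did 11716 genes in all. Fosb did not, with 1 to 19 counts per library and group means of 1.07 CPM in TUMOUR STD, 0.762 in CHEMO STD and 0.813 in CHEMO FO, so no difference in Fosb was detectable at this depth. Levels are in CPM, with no correction for transcript length, and are not compared between genes. Dusp1 rested on 129 to 902 counts per library, Fos on 21 to 442, Egr1 on 10 to 140 and Maff on 7 to 524. The counts behind Egr1 and Maff were thus few in the shallow libraries. The row of Ier2 is annotated as a pseudogene in the file. No source used here gives the handling of reads that fit more than 1 gene, which makes the Ier2 values less certain.

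The promoters were read because the members tended to vary together, as described further on. RefSeq's GRCr8 table of 300 bases per gene, from 250 before the start to 50 after it, holds 7 of the 10: Fosb, Junb, Egr1, Ier2, Nr4a1, Dusp1 and Maff. The counts rest on the older build Rnor 6, so these coordinates are not those of the count table. The full cAMP response element TGACGTCA, the sequence that CREB and ATF factors bind, was found in Dusp1, Maff and Ier2, 3 of 7, against 1.83% of all 33469 promoters. Its core TGACG, which the full element contains on both strands, was found on either strand in 6 of 7, against 21.2%. The variant TGCGTCA, whose opposite strand also contains TGACG, had 4 matches in Nr4a1 and none in the others (1.9% of promoters). The AP-1 element TGANTCA was in 0 of 7 (7.33% of promoters), and the CArG box, the element that SRF binds, was in Egr1 alone, with 2 matches (1.64%). These matches are letters in a window, not measured binding. A link between them and the shared variation of the members was not tested. The windows below show the element in capitals with 25 bases on either side, all on the plus strand. They were chosen to show the full element in its 3 genes, the variant in Nr4a1 and the core in Junb.
Dusp1, chr10:17184704-17184761: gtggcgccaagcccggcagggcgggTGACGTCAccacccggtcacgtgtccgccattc
Maff, chr7:112792711-112792768: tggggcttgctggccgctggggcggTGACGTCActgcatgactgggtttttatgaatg
Ier2, chr19:40399282-40399339: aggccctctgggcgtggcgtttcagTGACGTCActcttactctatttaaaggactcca
Nr4a1, chr7:134260058-134260114: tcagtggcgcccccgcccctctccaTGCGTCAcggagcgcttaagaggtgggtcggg
Junb, chr19:40080946-40081000: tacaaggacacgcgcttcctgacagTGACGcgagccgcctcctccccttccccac
The first base of the capitals lies 124 bases before the start of Dusp1, 51 before that of Maff, 66 before that of Ier2, 55 before that of Nr4a1 and 155 before that of Junb.

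CHEMO STD versus TUMOUR STD addresses the chemotherapy effect on a standard diet. Fos, Egr1 and Dusp1 were lower in muscle after chemotherapy. The other 6 tested genes were not called, with log2 fold changes from -0.52 (Nr4a1) to 0.27 (Atf3). A gene was called when its unadjusted p was below 0.05 in edgeR and its change at least 1.5-fold. By that rule 3 of the 9 tested were called, all lower, where 2.38% of all tested genes were called in either direction (279 of 11716). The genes were chosen with changes in these data known, so nothing is read from this share. The median log2 fold change of the 9 was -0.49, with 7 lower and 2 higher, against a median of -0.0016 over all tested genes. No gene in the table passed a Benjamini-Hochberg adjusted p of 0.05 (0 by edgeR and 0 by DESeq2; 762 at an unadjusted p below 0.05 by edgeR).

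The 5 TUMOUR STD samples had Fos at 30.4, 22.3, 14.6, 17.1 and 17.6 CPM, in replicates 8 to 12. In CHEMO STD, Fos had a lowest value of 6.43, a median of 9.71 and a highest of 14.8 CPM. The groups met only where CHEMO STD replicate 7 reached the level of TUMOUR STD replicate 10. The group means were 20.4 ± 6.25 CPM (SD, n = 5) and 9.90 ± 3.27 (SD, n = 6), and the fitted log2 fold change was -1.04 (SE 0.297), a level 0.488 of that in TUMOUR STD. Leaving out any 1 sample moved it between -1.18 and -0.85. Fos was called each time, which is no finding, since it was chosen for its change.

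Dusp1, the MAP kinase phosphatase, was at 123, 66.9, 87.6, 74.7 and 122 CPM in TUMOUR STD replicates 8 to 12. In CHEMO STD it ranged from 38.7 to 64.5 CPM with a median of 51.0. Every CHEMO STD sample was below every TUMOUR STD sample. Among the 9 genes this held for Dusp1 alone, and it held in either direction for 0.495% of all tested genes (58 of 11716). The means were 94.9 ± 26.4 CPM (SD, n = 5) and 51.4 ± 11.9 (SD, n = 6), with a log2 fold change of -0.88 (SE 0.215) that stayed between -0.99 and -0.76 when any 1 sample was left out.

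Egr1, the zinc-finger factor, was at 9.56, 13.9, 13.3, 7.28 and 8.16 CPM in TUMOUR STD replicates 8 to 12 and at 3.06 to 8.06 CPM, median 5.07, in CHEMO STD. Only TUMOUR STD replicate 11 lay below the highest CHEMO STD sample, replicate 7. The means were 10.4 ± 3.01 CPM (SD, n = 5) and 5.24 ± 1.99 (SD, n = 6), and the log2 fold change was -0.98 (SE 0.274), from -1.12 to -0.85 with 1 sample left out.

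Jun, the main partner of Fos in AP-1, was at 126 ± 12.4 CPM (SD, n = 5) in TUMOUR STD and 88.8 ± 24.1 (SD, n = 6) in CHEMO STD. Its log2 fold change of -0.49 (SE 0.172) fell short of 1.5-fold. Of the 6 CHEMO STD samples, 4 were at or below 89.0 CPM, under the lowest TUMOUR STD sample at 110, while samples 1+2 and 7 were at 122 and 112 CPM. Nr4a1, the orphan receptor, was at 65.0 ± 12.5 and 44.7 ± 18.3 CPM, a log2 fold change of -0.52 (SE 0.311). Both genes were called once samples 1+2 were left out, Jun at -0.60 and Nr4a1 at -0.71. That sample had the highest fibroblast markers of its group (a summed 11147 CPM against a median of 3519) and the highest Schwann cell markers (328 against 81.1), and their part in its Jun and Nr4a1 levels was not tested. Junb differed by -0.39 on the log2 scale (SE 0.329) and Ier2 by -0.25 (SE 0.218), both with overlapping groups. The bZIP genes Atf3 (0.27, SE 0.445) and Maff (0.14, SE 0.653) had standard errors larger than their differences.

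**Figure D1:**
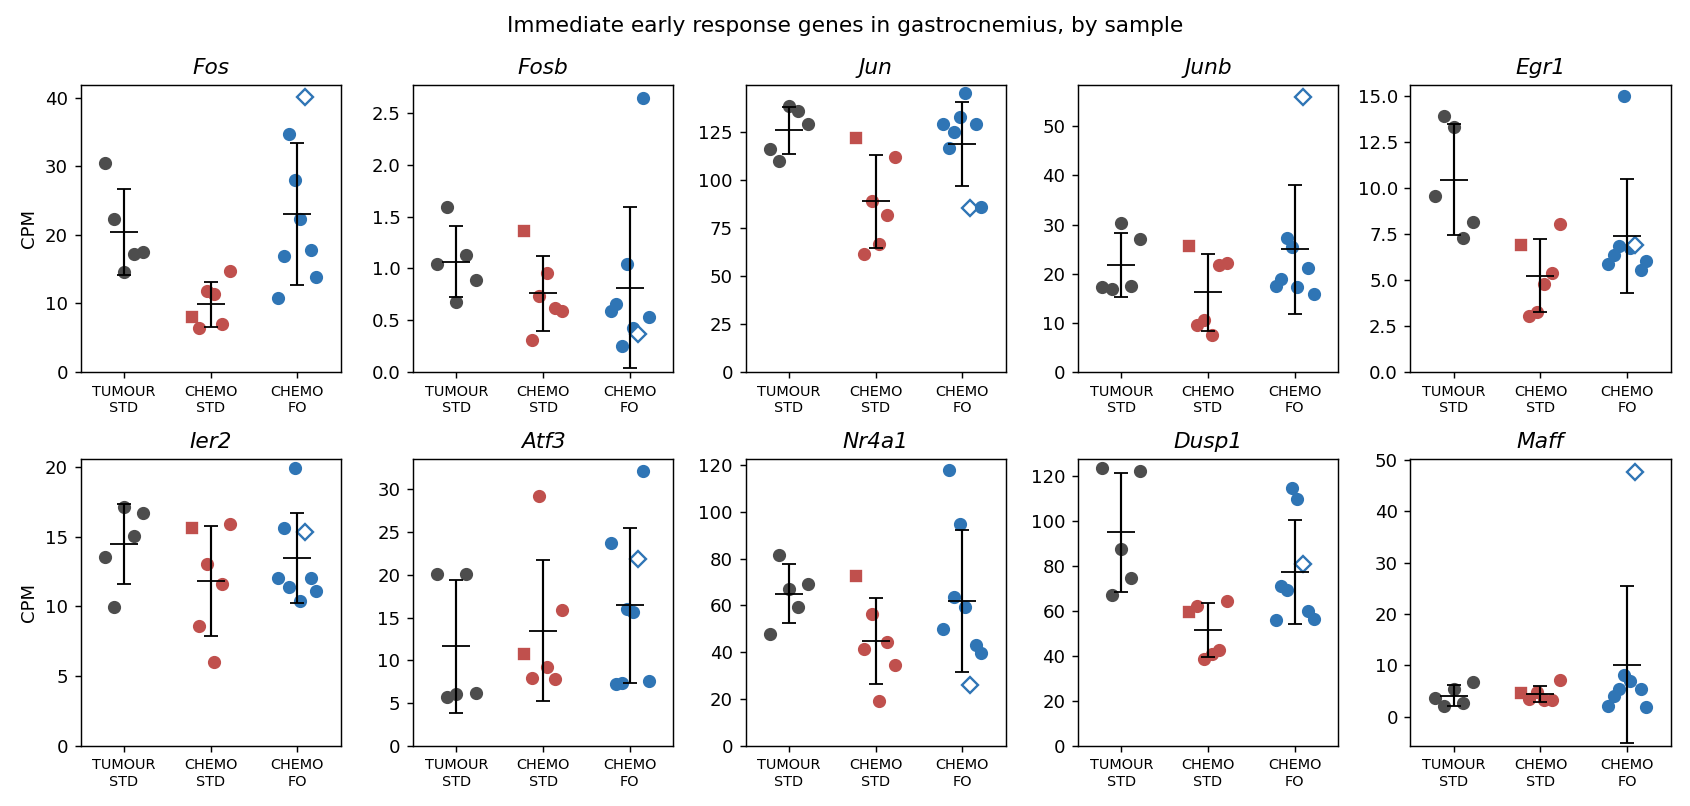
CPM of each gene (vertical axis, linear, on its own scale) in each of the 19 samples by group, with the mean and SD in black. The square is CHEMO STD replicates 1 and 2 summed and the open diamond is CHEMO FO replicate 18. Fos and Dusp1 are lowest in CHEMO STD, and the diamond alone carries the high Maff mean of CHEMO FO.

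The summed level of 6 smooth muscle markers moved with this comparison. It was 254 to 322 CPM in TUMOUR STD and 149 to 246 CPM in CHEMO STD, with no overlap, and none of the 6 was at 0 in every library. The 6 endothelial markers in the file summed to 168 to 229 CPM in TUMOUR STD and 145 to 192 in CHEMO STD. The part of these cells in the lower Fos, Egr1 and Dusp1 was not tested.

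CHEMO FO versus CHEMO STD addresses the diet effect under chemotherapy. All 9 tested genes had higher fitted levels on fish oil, and Fos ranked first by p among the 11716 genes tested, which is no finding, since Fos was chosen for its change. The calls numbered 3 of 9, all higher (Fos, Maff and Dusp1), where 1.66% of all tested genes were called in either direction (195 of 11716). Because of how the genes were chosen, nothing is read from this share. The median log2 fold change of the 9 was 0.44, against -0.0060 over all genes, of which 48.7% were higher. With CHEMO FO replicate 18 left out, all 9 remained above 0 with a median of 0.45, and Fos was the only one called. No gene passed the adjusted threshold (0 by edgeR and 0 by DESeq2; 528 at an unadjusted p below 0.05 by edgeR). This comparison and the former share the CHEMO STD samples, so a low level there enters both. The 4 red blood cell markers in the file, none at 0 in every library, summed to a median of 100 CPM in CHEMO FO (15.2 to 871) and of 415 in CHEMO STD (121 to 908). Their part in the differences was not tested.

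Fos in CHEMO FO had a lowest value of 10.8, a median of 20.1 and a highest of 40.2 CPM, the last in replicate 18. Replicates 13 and 20, at 10.8 and 13.9 CPM, were below the highest CHEMO STD sample (14.8), and the other 6 were above it. The means were 23.1 ± 10.3 CPM (SD, n = 8) against 9.90 ± 3.27 (SD, n = 6), a log2 fold change of 1.23 (SE 0.274) or 2.34-fold. The value was 1.05 without replicate 18 and at most 1.37 with another sample left out. Fos was called in all 19 such fits, and because of its choice nothing is read from that.

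Dusp1 in CHEMO FO ranged from 55.9 to 115 CPM with a median of 70.1. Replicates 13, 19 and 20, at 55.9, 59.8 and 56.6 CPM, lay within the CHEMO STD range, while replicates 16 and 17 were high at 115 and 110. The mean was 77.1 ± 23.1 CPM (SD, n = 8) against 51.4 ± 11.9 (SD, n = 6). Its log2 fold change of 0.59 (SE 0.195) lay at the threshold of 1.5-fold itself, and the call was lost in 8 of the 19 fits without 1 sample while the value stayed between 0.49 and 0.66.

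Maff was higher in CHEMO FO in a single sample. Replicate 18 had 47.6 CPM, from 524 counts, whereas the other 7 samples had 1.87 to 8.03 CPM and CHEMO STD had 3.18 to 7.08. The log2 fold change was 1.26 (SE 0.571) with that sample and 0.08 without it. Junb behaved similarly, at 56.0 CPM in replicate 18 and 15.9 to 27.3 in the other 7. Its log2 fold change was 0.60 (SE 0.299), not called, and 0.29 without the sample. In the same library Jun (85.4 CPM) and Nr4a1 (26.2 CPM) were the lowest of their group, so the genes were not all high in it. The high macrophage markers and the low muscle fibre markers of this library were given above, and their part in its Maff and Junb levels was not tested.

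Jun was at 118 ± 21.8 CPM (SD, n = 8) in CHEMO FO, with 6 of 8 samples between 116 and 145 CPM and replicates 18 and 20 at 85.4 and 86.0. Its log2 fold change from CHEMO STD was 0.41 (SE 0.155). Egr1 had a difference of 0.44 (SE 0.257), which fell to 0.25 without replicate 16, the one sample at 15.0 CPM when the other 7 were at 5.52 to 6.91. Nr4a1 differed by 0.44 (SE 0.283), with a wide spread in CHEMO FO from 26.2 to 118 CPM. Atf3 (0.25, SE 0.397) and Ier2 (0.15, SE 0.199) differed by less than their standard errors. No member had groups without overlap in this comparison, as did 0.0683% of all tested genes (8 of 11716).

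**Figure D2:**
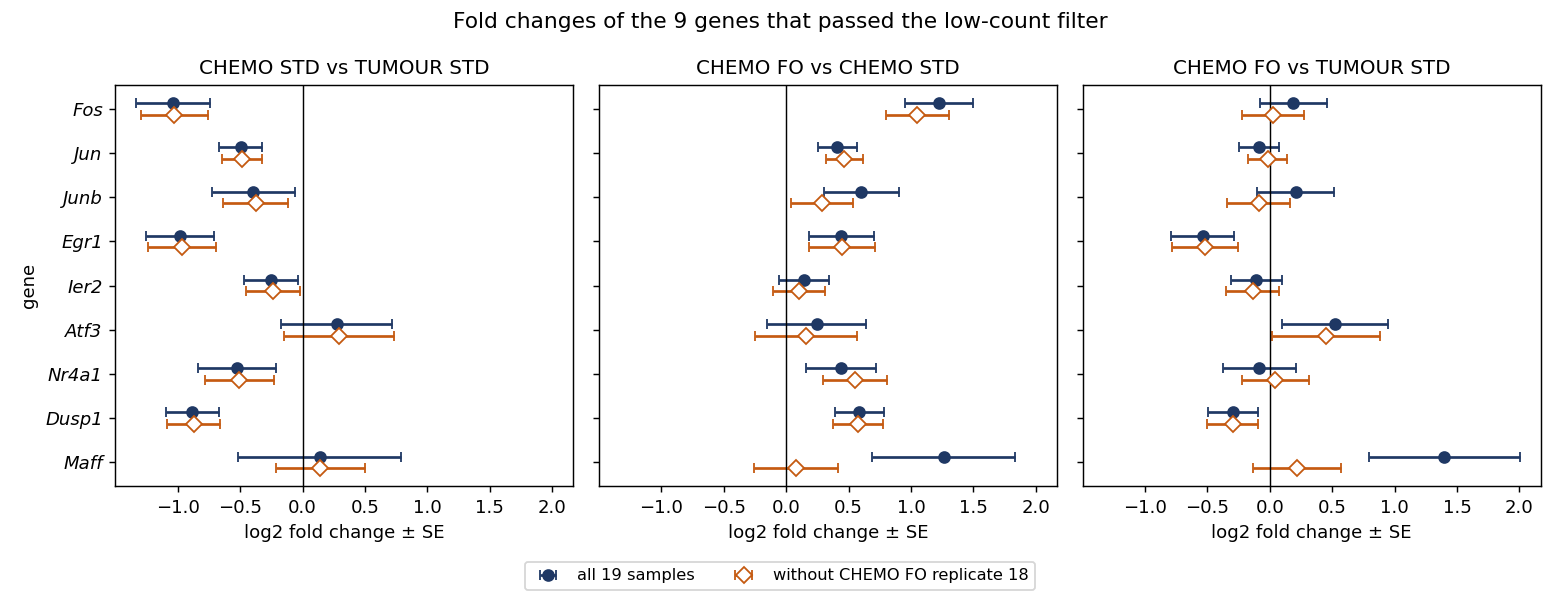
Log2 fold change (horizontal axis) with its standard error for each of the 9 tested genes in the 3 comparisons, from all 19 samples (filled circles) and without CHEMO FO replicate 18 (open diamonds). Fos keeps its place in both settings, at 1.23 and 1.05 in CHEMO FO versus CHEMO STD, whereas Maff moves from 1.26 to 0.08.

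CHEMO FO versus TUMOUR STD sets the treated rats on fish oil beside the untreated rats on the standard diet. It shares samples with both other comparisons. Of the 9 genes, 4 were higher and 5 lower, with a median of -0.09 against 0.0023 over all genes. Maff was the only call, 1 of 9, where 3.6% of all tested genes were called in either direction (422 of 11716), and it was lost without replicate 18 (1.40, SE 0.604, with it and 0.22 without). No gene passed the adjusted threshold by edgeR (0; 1059 at an unadjusted p below 0.05), and 11 did by DESeq2. The Fos level of CHEMO FO, 23.1 ± 10.3 CPM (SD, n = 8), and that of TUMOUR STD, 20.4 ± 6.25 (SD, n = 5), differed by 0.19 on the log2 scale (SE 0.272), or 0.02 without replicate 18. Jun differed by -0.09 (SE 0.162), Nr4a1 by -0.09 (SE 0.293), Ier2 by -0.11 (SE 0.206) and Junb by 0.21 (SE 0.309), each within its standard error. Without replicate 18, Nr4a1 was at 0.04 and Junb at -0.09. Atf3 differed by 0.52 (SE 0.424). Egr1 had a log2 fold change of -0.54 (SE 0.253) and Dusp1 of -0.30 (SE 0.200), neither called, at 7.41 ± 3.11 and 77.1 ± 23.1 CPM in CHEMO FO. Egr1 was called lower in 3 of the 19 fits without 1 sample. No member had groups without overlap, as did 0.324% of all tested genes (38 of 11716).

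In order of level, Fos, Fosb, Jun, Junb, Dusp1, Nr4a1, Egr1 and Ier2 had their lowest mean in CHEMO STD. Fos and Junb had their highest mean in CHEMO FO, and the other 6 in TUMOUR STD. The means of TUMOUR STD and CHEMO FO differed by less than the SD within either group for Fos, Jun, Junb, Nr4a1, Ier2 and Dusp1. Atf3 and Maff were lowest in TUMOUR STD and highest in CHEMO FO, for Maff through replicate 18 (4.77 ± 2.31 CPM in the other 7). The place of Junb at the top in CHEMO FO also rests on replicate 18. In the other 7 samples Junb was at 20.5 ± 4.36 CPM, below the 21.8 of TUMOUR STD. Fosb did not pass the filter, and by median it was lowest in CHEMO FO (0.560 CPM against 0.678 in CHEMO STD). Its CHEMO FO mean includes replicate 19 at 2.64 CPM, from 11 counts.

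Related genes outside the members were read from lists of 122, of which 117 were in the file and 100 were tested. In the AP-1 and ATF/CREB family, 9 of 20 tested genes were higher and 11 lower after chemotherapy on the standard diet, with a median of -0.01. Of 41 other rapidly induced genes, 16 were higher and 25 lower with a median of -0.11. The 2 called were lower, as were 1.45% of all tested genes: Ccn1, a matrix-associated protein induced by SRF and YAP signals, at -0.81 (SE 0.248), and Bhlhe40, a clock-linked repressor, at -0.65 (SE 0.214), both with an adjusted p of 0.719 by edgeR. Bhlhe40 lost its call without CHEMO STD replicate 6 (-0.58). Ccn1 was at 35.8 ± 3.18 CPM (SD, n = 5) in TUMOUR STD and 19.9 ± 7.58 (SD, n = 6) in CHEMO STD, with no overlap. None of 6 MAP kinase phosphatases and none of 33 upstream kinases, transcription factors and corepressors was called (0 by edgeR in each list).

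In CHEMO FO versus CHEMO STD, 34 of the 41 other rapidly induced genes were higher, with a median of 0.34, and 9 were called, all higher, where 0.615% of all tested genes were called higher. The list was chosen with earlier results known, so nothing is read from that share. Ccn1 differed by 0.93 (SE 0.227), Apold1, an early response gene of endothelium, by 1.33 (SE 0.408) and Rrad, a small GTPase that restrains calcium channels, by 1.21 (SE 0.433), each with an adjusted p of 0.974 by edgeR. Without CHEMO FO replicate 18, 29 of 41 were higher, the median was 0.12 and Ccn1 and Apold1 were the 2 called. Ccn1 was at 39.0 ± 13.0 CPM (SD, n = 8) in CHEMO FO. Apold1 ranged from 2.64 to 21.5 CPM in CHEMO FO and from 0.918 to 5.05 in CHEMO STD. In the AP-1 and ATF/CREB family 14 of 20 were higher and none was called, and no MAP kinase phosphatase (3 of 6 higher) or upstream gene (13 of 33 higher) was called.

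**Figure D3:**
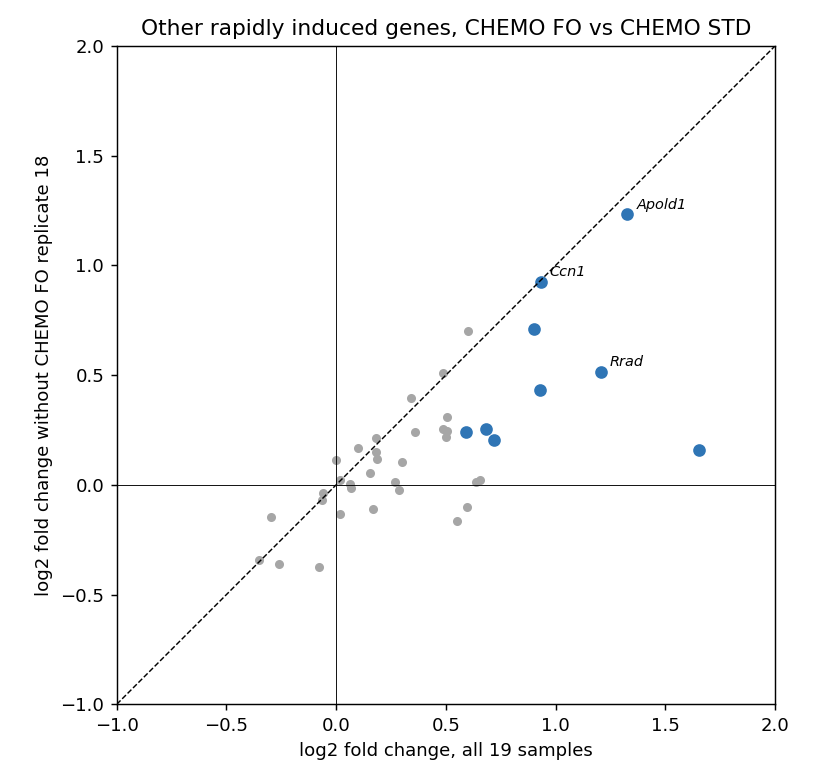
Log2 fold change of the 41 other rapidly induced genes in CHEMO FO versus CHEMO STD, from all 19 samples (horizontal axis) against the same without CHEMO FO replicate 18 (vertical axis). Blue points were called with all samples, grey points were not, and the dashed line marks equal values. Ccn1 and Apold1 lie near the line, while Rrad lies under it, at 1.21 and 0.52.

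In CHEMO FO versus TUMOUR STD, 28 of the 41 were higher, and 8 were called higher and 1 lower, where 1.09% and 2.51% of all tested genes were. Nfil3, a bZIP repressor, differed by 1.43 (SE 0.404), Cebpd, an acute-phase bZIP factor, by 1.60 (SE 0.527) and Myc by 1.31 (SE 0.443), while Bhlhe40 differed by -0.65 (SE 0.200), each with an adjusted p of 0.486 by edgeR. Without CHEMO FO replicate 18, Nfil3 was at 0.94, Cebpd at 0.99 and Myc at 0.69, all still called, and Bhlhe40 at -0.52, not called. Mafk, a small Maf factor like Maff, was called at 0.70 (SE 0.288; adjusted p = 0.516 by edgeR) and the phosphatase Dusp7 at 0.61 (SE 0.258; adjusted p = 0.524 by edgeR). Neither was called without that sample, with Mafk at 0.27 and Dusp7 at 0.31, and leaving out TUMOUR STD replicate 8 or 11 also ended the call of Dusp7. Without CHEMO FO replicate 18, 5 related genes were called in place of 11, among them Cebpd, Myc, Nfil3 and Pim1.

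The genes also differed in how far their levels varied between samples of 1 group, given as a description. This spread includes counting noise, and the genes were not equally well counted. Jun rested on 201 to 1421 counts per library and Maff on 7 to 524. The SD of log2 CPM within groups was 0.30 for Jun, 0.38 for Dusp1 and 0.39 for Ier2, and 0.54 for Fos. It reached 0.83 for Atf3 and 1.00 for Maff. Without CHEMO FO replicate 18 that of Maff was 0.63, below the 0.84 of Atf3. Atf3 was uneven in every group. In TUMOUR STD, replicates 8 and 11 had 20.2 and 20.1 CPM and the other 3 had 5.67 to 6.21. CHEMO STD replicate 4 had 29.2 CPM and the other 5 had 7.86 to 15.9. In CHEMO FO it ran from 7.26 to 32.2 CPM.

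Deviations from the group mean were set against each other over the 19 samples. Of the 36 pairs among the 9 tested genes, 30 had a Pearson r above 0. Values ran from -0.26 (Atf3 with Nr4a1) to 0.72 (Junb with Maff), with a median of 0.29. Junb and Maff are the genes that CHEMO FO replicate 18 raised most (deviations of 1.28 and 2.97). The r of that pair, the count of 30 and the median were not computed without this sample. The median r of a member with all tested genes was 0.0127. Fos itself followed the others loosely. Its r was 0.63 with Maff (permutation p = 0.00894 within groups, adjusted over 9 relations p = 0.0805; Spearman's rho 0.55, permutation p = 0.0237, adjusted p = 0.213), and -0.22 to 0.35 with the other 8. Without the 2 samples whose Fos level was farthest from the overall median, CHEMO STD replicates 3 and 6, r with Maff was 0.64 (permutation p = 0.0181, adjusted p = 0.163). In deviation from the group mean, on which r rests, CHEMO FO replicates 13 (-0.95) and 18 (0.92) were farthest in Fos. Without CHEMO FO replicate 18, also the sample with the largest deviation in Maff, r with Maff was 0.50 (permutation test, adjusted p = 0.496). No relation with Fos passed an adjusted p of 0.05. Dusp1 (0.35), Egr1 (0.32) and Junb (0.31) came next.

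Some rats were high or low in most of the genes. CHEMO STD replicate 7 had the highest level of its group in 5 of 9 genes and was among the top 2 in 8 of 9, and CHEMO FO replicate 16 was among the top 2 in 6 of 9. The summed CHEMO STD sample 1+2, the deepest of the 19 at 19965891 counts, was among the top 2 in 5 of 9. At the other end, CHEMO FO replicate 20 was below its group mean in all 9 genes and had the lowest mean of standardised deviations of any sample (-1.08). CHEMO STD replicate 5 was the lowest of its group in 4 of 9, and TUMOUR STD replicate 9 was the lowest in 6 of 9 while it was the highest in Egr1 and Nr4a1. CHEMO STD replicate 7 also had the highest summed lymphocyte (101 CPM against a group median of 13.7) and adipocyte markers (400 CPM against 51.3), and CHEMO FO replicate 16 the highest skin markers of its group (110 CPM against 3.98). CHEMO FO replicate 16 was also the highest of its group in fibroblast markers (7031 CPM against a median of 3429). It was the highest in muscle fibre, lymphocyte and satellite cell markers as well. Of the 6 lymphocyte markers 1 passed the low-count filter, as did 1 of the 6 skin markers. The part of other cells in CHEMO STD replicate 7 and CHEMO FO replicate 16 was not tested. The mean of the members' standardised deviations had r = 0.29 with log2 library depth, given as a description over 19 samples.

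**Figure D4:**
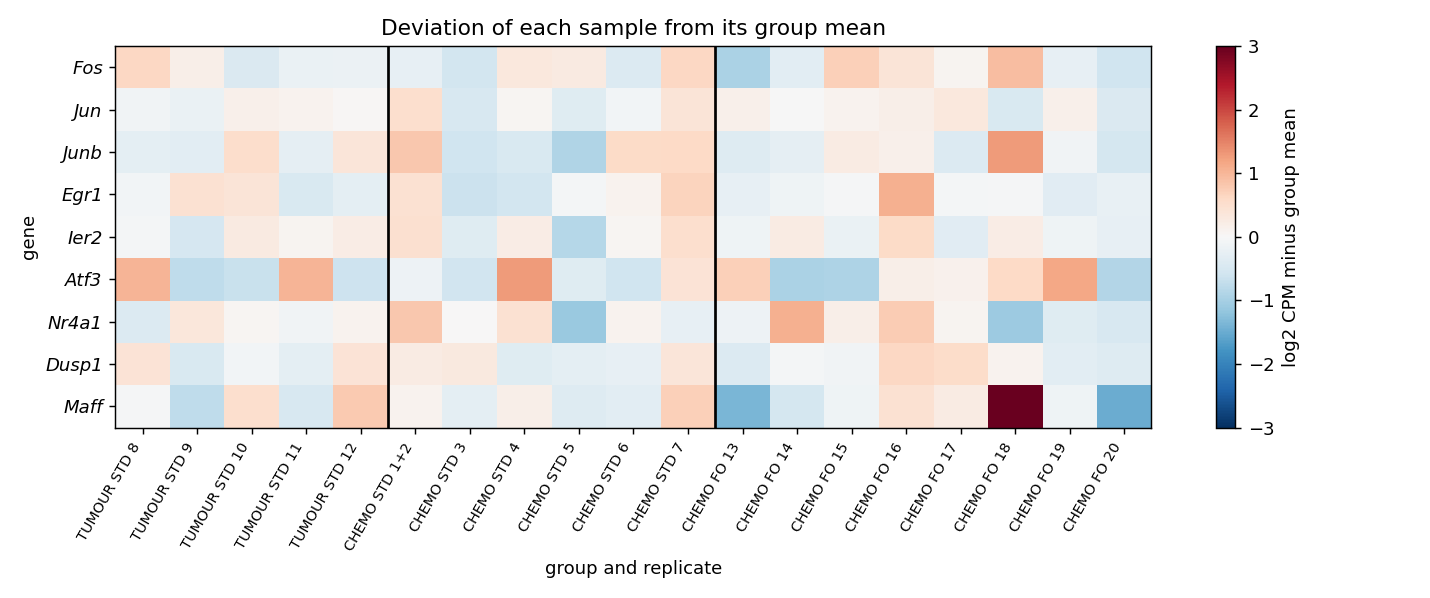
Deviation of each sample from its group mean (log2 CPM, red above and blue below the mean) for the 9 tested genes (rows) in the 19 samples (columns), with black lines between groups. CHEMO STD replicate 7, the summed CHEMO STD sample 1+2 and CHEMO FO replicate 16 are raised in most rows. CHEMO FO replicate 18 is raised most in Maff (2.97) and Junb (1.28) and lowered in Jun and Nr4a1.

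Outside the members, the 10 genes whose deviations were most like the members' mean were Ifnar1 (r = 0.89), Tnfaip8l2 (0.85), Cyba (0.84), Ripk1 (0.82), Faap20 (0.81), Irs2 (0.81), Zmynd8 (0.80), Art1 (0.79), Myo1g (0.78) and Eef1a1 (0.78), over 19 samples and 11664 genes. None of the 10 is on a list of related genes (0 of 10), and 4 of the 100 related genes were in the top 100. Without CHEMO FO replicate 18, 7 of the 10 were again in the top 10. All genes were measured in the same libraries, which differ in depth, so these values are a description.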

How the data were processed

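Gastrocnemius RNA was sequenced in 20 stranded, rRNA-depleted libraries. The authors trimmed and aligned reads (per the submitters' processing notes CASAVA 1.9, Trim Galore 0.4.1, FastQC 0.11.4, TopHat2 2.0.10 and Bowtie2, to Rnor 6), took the alignments into Partek Flow and deposited raw counts per gene without normalisation. How reads were counted, strand included, is not given in the sources used here. Rows without a gene name (388, holding 0.102% to 0.272% of a library's counts) were left out.

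Groups were taken from the labels. Counts of CHEMO STD replicates 1 and 2 were summed. All 19 samples were fitted together in edgeR 4.0.16 (R 4.3.3) by quasi-likelihood after filterByExpr (minimum count 10, minimum total 15) and TMM scaling. A call needs 1.5-fold or more at an unadjusted p below 0.05, as in the study's methods, and Benjamini-Hochberg adjustment ran over all tested genes. CPM use TMM library sizes. Within-group correlations used log2 CPM with a prior count of 2 and two-sided permutation tests with 100000 permutations within groups, adjusted over 9 relations. Promoter motifs were searched on both strands. The edgeR p values set a difference between groups against the spread between samples within groups. The permutation p values concern deviations within groups. Counting intervals were not computed.

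The members and lists were chosen with earlier results of these data known. Named genes were the 10 members, up to 3 called genes higher and 3 lower with the smallest p per list and comparison, and the 10 genes most like the members' mean. Genes named as called without CHEMO FO replicate 18 were chosen after their values were seen. The results of 2 related genes are not reported here by name. Alternatives were DESeq2 1.42.0, RLE factors, library totals, no filter, a stricter filter (a mean of 10 counts), 20 libraries kept apart, only the 2 groups compared, and each sample left out. The fit was tested on simulated data. Figures were drawn with matplotlib 3.10.9.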

Additional observations from a re-analysis of the deposited data

Results flagged for a closer look

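Of 30 groups of values (10 genes in 3 groups), 4 held a sample far from the others. The rule was Dixon's ratio of the gap to the group's range at the 95% level. Its rate of about 1 in 20 groups holds for independent groups of normally distributed values. CPM need not be so distributed and the 10 genes share their samples, so the 4 are not set against that rate. All 4 are in CHEMO FO (n = 8) and are high values. Maff in replicate 18 was at 47.6 CPM (ratio 0.865), and Junb in the same replicate was at 56.0 CPM (ratio 0.716). Egr1 in replicate 16 was at 15.0 CPM (ratio 0.854). Fosb in replicate 19 was at 2.64 CPM (ratio 0.667), which rests on 11 counts.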

How the results depend on the processing

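Of the members' log2 fold changes, 189 of 189 values under other normalisations, tools, filters and groupings stayed within 1 SD of the value reported. So did 511 of 513 with a sample left out. The 2 that moved were those of Maff without CHEMO FO replicate 18. The SD is that of the gene's log2 CPM between samples within groups, 0.30 (Jun) to 1.00 (Maff). That margin is wide for a difference of group means, so staying within it shows little. Junb at 0.29 in place of 0.60 in CHEMO FO versus CHEMO STD stayed within it. So did Atf3 at -0.13 in place of 0.27 in CHEMO STD versus TUMOUR STD. No called value changed sign. With a sample left out, the members called ranged from 3 to 5 in CHEMO STD versus TUMOUR STD, from 1 (without CHEMO STD replicate 4 or 5, or CHEMO FO replicate 18) to 5 (without CHEMO STD replicate 7) in CHEMO FO versus CHEMO STD, and from 0 to 2 in CHEMO FO versus TUMOUR STD. Related genes called ranged from 2 to 6, from 2 to 15 and from 5 to 13. The 15 came without CHEMO STD replicates 1 and 2, and the 2 and the 5 in the last pair of ranges without CHEMO FO replicate 18. With only the 2 groups compared in the fit, members called were 1 in CHEMO FO versus CHEMO STD and 0 in CHEMO FO versus TUMOUR STD, and related genes called in CHEMO STD versus TUMOUR STD were 6. That last count was 5 with the 20 libraries kept apart. The cause was not tested. Without the low-count filter more genes were tested, and calls over all genes were 971, 722 and 1116. With a sample left out they ranged from 161 (without TUMOUR STD replicate 10) to 603 (without CHEMO STD replicates 1 and 2), from 153 to 266 and from 273 (without CHEMO FO replicate 18) to 584. Of the relations with Fos, 1 passed the adjusted threshold with library totals, that with Maff (r = 0.68), and 0 to 1 with a sample left out. Of 198 correlations, 194 kept their side of the threshold. Depth limits Fosb, which had at most 19 counts in a library. No paired analysis was possible because the replicate numbers run on across groups and no number is shared.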
